A study of Arabidopsis thaliana with 9 samples.

Results

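Abscisic acid (ABA) is the plant hormone of drought and salt stress. 10 Arabidopsis thaliana genes of its synthesis, breakdown and feedback were followed by their locus identifiers, out of 22155 loci in the deposited count table. The set held NCED3, a dioxygenase of ABA synthesis, and CYP707A1 and CYP707A3, hydroxylases that break ABA down. It also held ABI1, ABI2, HAB1, HAI1 and PP2CA, protein phosphatases of clade A of the PP2C family, RAB18, a dehydrin, and ABF3, a bZIP transcription factor. The table held 5 of the 10 genes, NCED3, CYP707A3, ABI1, HAI1 and PP2CA, and all but CYP707A3 passed the filter on low counts. CYP707A1 (AT4G19230), ABI2 (AT5G57050), HAB1 (AT1G72770), RAB18 (AT5G66400) and ABF3 (AT4G34000) were not analysed here.

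RNA-seq was made of the wild-type accession Col-0, of PP2-A5oe, labelled as overexpressing PP2-A5, a protein with a TIR and a lectin domain, and of pp2-a5, labelled as its mutant. Each group had 3 biological replicates, and all 9 libraries carried the treatment label control. The tissue label was rosette, while the extraction protocol named seedlings at 3 weeks of age. The series title concerns defence against the spider mite Tetranychus urticae, and no library was labelled as infested. The labels did not give the promoter of the overexpressing line, the allele of pp2-a5 or the number of independent lines, so a line and its genotype cannot be told apart. The PP2-A5 transcript, which would check the labels, was not analysed here. The labels did not say whether replicates came from separate pots or sowings, so p-values measured only the spread between these samples.

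As background, NCED enzymes cleave carotenoids in the step that limits ABA synthesis, and NCED3 is the member known for the drought response of leaves. ABA bound to PYR/PYL receptors inhibits clade A PP2C phosphatases, which releases SnRK2 kinases to phosphorylate ABF transcription factors. Genes of several of these phosphatases and of the CYP707A hydroxylases are themselves induced by ABA, so the pathway feeds back on itself.

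Total counts were 5408847 to 6196722 per library. Levels are given as CPM, counts divided by library totals that were scaled with the trimmed mean of M-values (TMM). Errors are SDs over 3 libraries for levels and standard errors for log2 fold changes. A call required p under 0.05 after Benjamini-Hochberg adjustment over the 13975 loci tested with edgeR's quasi-likelihood test. With 3 libraries against 3, an exact permutation test of 1 gene cannot go below p = 0.1. The mitochondrial share of counts was highest in Col-0 replicate 3 (0.178%), which also lay furthest from the other replicates of its group. PP2-A5oe replicate 2 came next (0.132%), and the other 7 libraries had 0.0741% to 0.0878%. Leaf markers were abundant (LHCB1.1 and LHCB2.1 together 6230 CPM or more in each library), while the seed markers OLEO1 and OLEO2 (2 of 5 in the table) summed to at most 0.187 CPM. The lines and the wild type are bulk samples, in which fewer cells of a type and less RNA per cell cannot be told apart.

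The promoters of PP2CA, NCED3 and HAI1 are shown first, because PP2CA alone of the 4 tested genes held the motifs searched for. Each sequence is the 250 bases before the annotated gene start, 5′ to 3′ on the minus strand of RefSeq's TAIR10.1 genome, and capitals mark ACGTG (core of the ABA-responsive element), CACGTG (the G-box, which contains ACGTG) or CCGAC (core of the drought-responsive element) on either strand. The windows are PP2CA (chr3:3585851-3586100), NCED3 (chr3:4834016-4834265) and HAI1 (chr5:23896940-23897189), and none overlapped another annotated gene.
PP2CA: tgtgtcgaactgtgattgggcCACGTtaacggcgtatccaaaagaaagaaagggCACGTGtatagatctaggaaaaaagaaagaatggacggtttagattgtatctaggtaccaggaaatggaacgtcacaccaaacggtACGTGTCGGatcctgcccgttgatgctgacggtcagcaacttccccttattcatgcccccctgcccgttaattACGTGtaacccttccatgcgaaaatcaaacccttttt
NCED3: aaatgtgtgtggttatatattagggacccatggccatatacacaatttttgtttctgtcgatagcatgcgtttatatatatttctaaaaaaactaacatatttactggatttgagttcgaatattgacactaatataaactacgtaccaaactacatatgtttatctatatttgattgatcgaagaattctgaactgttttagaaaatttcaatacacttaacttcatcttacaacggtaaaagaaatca
HAI1: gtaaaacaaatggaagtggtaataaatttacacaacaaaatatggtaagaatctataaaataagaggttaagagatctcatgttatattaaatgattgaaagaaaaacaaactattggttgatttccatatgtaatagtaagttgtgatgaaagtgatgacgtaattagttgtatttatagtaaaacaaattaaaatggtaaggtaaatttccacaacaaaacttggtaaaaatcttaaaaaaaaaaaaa

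PP2CA carried ACGTG at 5 places. 1 of them, at 196 to 191 bases before the start, formed CACGTG, which holds ACGTG on both strands and so gave 2 of the 5. It carried CCGAC at 1 place, on the reverse strand 106 to 102 bases before the start, sharing a base with an ACGTG. The windows of NCED3, HAI1 and ABI1 (chr4:13222377-13222626, not printed) held none of the 3 motifs. Among 27443 windows of the same length before protein-coding genes, 22.9% held ACGTG, 6.49% held CACGTG and 12.0% held CCGAC. A match is a description of letters, and no match says only that these letters are not in this window.

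All 4 tested genes were higher than in Col-0 in each line. NCED3 and HAI1 rose most, ABI1 rose about equally in both lines, and PP2CA rose least. Over all tested loci, 25.0% were called in PP2-A5oe against Col-0, 14.5% higher and 10.5% lower. In pp2-a5 against Col-0, 20.8% were called, 12.3% higher and 8.47% lower. The 4 genes also did not overlap with Col-0 in either line, which held for 36.8% of loci in PP2-A5oe (19.7% higher) and 33.7% in pp2-a5 (18.5% higher). With upper-quartile scaling the split of calls moved from 2027 higher and 1469 lower to 1769 and 2069 in PP2-A5oe, and from 1719 and 1183 to 1536 and 1553 in pp2-a5. All 4 genes kept a positive log2 fold change under each scaling run. Both comparisons use the same 3 Col-0 libraries.

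Markers of other cell types moved with the groups to different degrees. The 7 root markers, all in the table, summed to 8.20 to 9.71, 28.8 to 34.8 and 11.9 to 15.2 CPM in the Col-0, PP2-A5oe and pp2-a5 libraries. The root markers LRX1 and PRP3 rose in PP2-A5oe, by log2 1.57 ± 0.23 and 1.89 ± 0.17 (adjusted p = 2.68e-06 and 1.42e-10), and PRP3 also rose in pp2-a5 (log2 0.66 ± 0.20, adjusted p = 0.0177). LRX1 was not called in pp2-a5 (log2 0.34 ± 0.28, adjusted p = 0.438). The Col-0 libraries gave 4, 4 and 2 counts of CASP1, those of PP2-A5oe gave 17, 21 and 16, and those of pp2-a5 gave 3, 9 and 6. CASP1 passed the filter only through PP2-A5oe, so its difference is given as counts with no test. The 6 of 7 guard cell markers in the table summed to 189 to 208, 184 to 205 and 181 to 195 CPM in the Col-0, PP2-A5oe and pp2-a5 libraries. The 3 of 6 vascular markers in the table summed to 414 to 429, 386 to 427 and 347 to 423 CPM. The leaf markers, 2 of 6 in the table, summed to 7371 to 8266, 6783 to 7525 and 6230 to 6641 CPM. Against Col-0, LHCB1.1 was called lower in PP2-A5oe (log2 -0.24 ± 0.06, adjusted p = 0.00256) and in pp2-a5 (log2 -0.38 ± 0.06, adjusted p = 8.23e-06). LHCB2.1 was called in neither line. Of the guard cell markers only KAT1 was called, lower in pp2-a5 (log2 -0.32 ± 0.10, adjusted p = 0.0147). No vascular marker was called in either line. The part of these markers in the differences of the ABA genes was not tested.

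**Figure D1:**
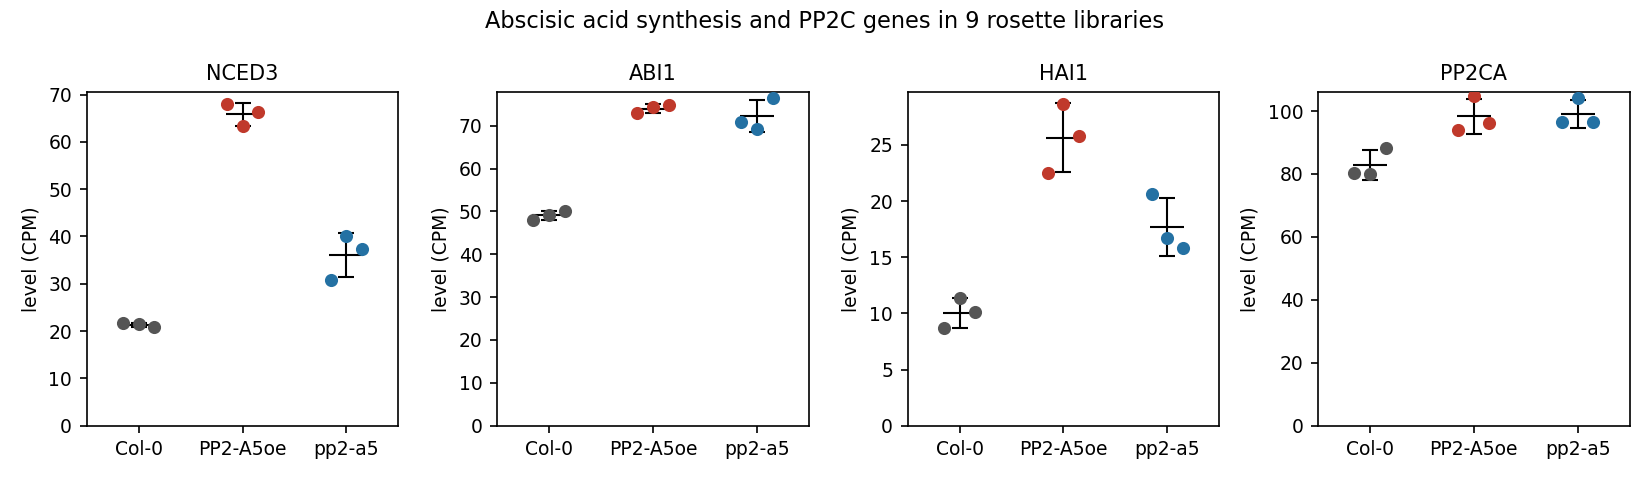
CPM of NCED3, ABI1, HAI1 and PP2CA in each of the 9 libraries by group, with points for libraries and lines for mean and SD (n = 3). Every PP2-A5oe and pp2-a5 library lies above every Col-0 library in each panel, and the lines differ from each other for NCED3 and HAI1.

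NCED3 (AT3G14440, chromosome 3 from 4831286 to 4834015 on the minus strand, TAIR10.1, 1 annotated transcript) stood at 21.6, 21.4 and 20.9 CPM in Col-0. It stood at 68.0, 63.3 and 66.2 CPM in PP2-A5oe, and at 30.8, 40.0 and 37.4 CPM in pp2-a5. The 3 groups did not overlap: PP2-A5oe was highest, pp2-a5 intermediate and Col-0 lowest. The group means were 21.3 ± 0.36, 65.8 ± 2.37 and 36.1 ± 4.73 CPM. NCED3 rose 3.08-fold in PP2-A5oe (log2 1.63 ± 0.10, adjusted p = 2.26e-15), with a 1.69-fold rise in pp2-a5 (log2 0.76 ± 0.10, adjusted p = 9.30e-07). PP2-A5oe exceeded pp2-a5 1.83-fold (log2 0.87 ± 0.09, adjusted p = 2.57e-09), while 12.7% of all loci were called between the lines, 7.21% higher and 5.45% lower in PP2-A5oe. Libraries of the lines did not overlap for NCED3 and HAI1, nor for 28.4% of all loci (14.9% higher in PP2-A5oe).

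NCED3 held nearly all counts of the NCED genes compared here, which leave out NCED6, a gene not analysed here. Of the counts of NCED2, NCED3, NCED5 and NCED9 together, NCED3 took 93.7% in Col-0 (374 of 399, exact binomial 95% interval 90.9% to 95.9%). The share was 98.6% in PP2-A5oe (1144 of 1160, 97.8% to 99.2%) and 96.4% in pp2-a5 (671 of 696, 94.7% to 97.7%). These intervals cover counting error only. NCED2 had 22, 6 and 22 counts in Col-0, PP2-A5oe and pp2-a5, under the filter. In a fit with no filter, NCED2 was lower in PP2-A5oe than in Col-0 (log2 -1.82 ± 0.64, adjusted p = 0.0295), a gene chosen after its values were seen.

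Of 9 other synthesis genes, 8 were in the table and 3 passed the filter on low counts. None of these 3 was called in any comparison with the settings used throughout. As only 25.0%, 20.8% and 12.7% of all loci were called in PP2-A5oe, in pp2-a5 and between the lines, the 3 genes are not read as unchanged. In each comparison 1 of the 3 had an unadjusted p under 0.05, and none was called by DESeq2 or limma-voom. The most abundant were ABA2, the dehydrogenase that makes abscisic aldehyde, and ABA4, which acts in neoxanthin synthesis. ABA2 had a log2 fold change of -0.28 ± 0.11 in PP2-A5oe (adjusted p = 0.0519), against -0.22 ± 0.11 in the pp2-a5 mutant (adjusted p = 0.152). In PP2-A5oe it passed the threshold in 8 of 20 alternatives, upper-quartile scaling, no filter and the stricter filter among them, and it overlaps other annotated genes. ABA4 stood at 0.16 ± 0.10 in PP2-A5oe (adjusted p = 0.253), against -0.03 ± 0.10 in the pp2-a5 mutant (adjusted p = 0.870). The median log2 fold change of the 3 genes was -0.22 in PP2-A5oe and -0.03 in pp2-a5, beside -0.02 and -0.01 over all loci.

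Of the breakdown genes, CYP707A3 (AT5G45340) gave 1 count in all, in PP2-A5oe replicate 2 (0.180 CPM). It was listed at 0 in Col-0 and pp2-a5, where 3 counts over the group would be 0.170 and 0.164 CPM. This is not read as absence of expression, because CYP707A3 has 2 annotated transcripts and such loci were often near 0 in this table. Among nuclear protein-coding loci in the table, 22.9% with 2 or more annotated transcripts had under 10 counts in all, against 15.3% with 1 transcript. Median totals were 133 and 580 counts. Of the genes followed here, 8 of 22 with 2 or more transcripts and 7 of 44 with 1 had under 10 counts. How the authors counted genes with several transcripts is not given in the sources used here.

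Of the 6 other turnover and conjugation genes, 5 were in the table and 3 were tested. UGT71B6, a glucosyltransferase that conjugates ABA, was called higher in each line. It stood at 3.47 ± 1.252, 5.63 ± 0.69 and 7.62 ± 1.48 CPM in Col-0, PP2-A5oe and pp2-a5. It rose in pp2-a5 (log2 1.13 ± 0.24, adjusted p = 0.000487) and in PP2-A5oe (log2 0.69 ± 0.26, adjusted p = 0.0431). The PP2-A5oe call was lost in 9 of 19 alternatives (adjusted p from 0.0151 to 0.252 over them), and without Col-0 replicate 2 the log2 value was 0.44. Col-0 replicate 3, PP2-A5oe replicates 1 and 3 and pp2-a5 replicate 2 also ended the call when left out (adjusted p from 0.0528 to 0.133). UGT71B6 also overlaps another annotated gene. UGT71C5, another ABA glucosyltransferase, was at 0.13 ± 0.09 and 0.22 ± 0.09 (adjusted p = 0.340 and 0.0851). CYP707A4, a further ABA hydroxylase named outside the rule after its values were seen, was at 0.44 ± 0.22 and -0.10 ± 0.23 (adjusted p = 0.143 and 0.814).

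HAI1 (AT5G59220, chromosome 5 from 23894404 to 23896939, minus strand), a phosphatase strongly induced by ABA, showed the largest fold changes against Col-0 among the 3 measured PP2C genes of the set. It stood at 8.71, 11.4 and 10.08 CPM in Col-0, at 22.5, 28.7 and 25.8 CPM in PP2-A5oe and at 20.6, 16.7 and 15.8 CPM in pp2-a5. The 3 groups did not overlap, in the same order as for NCED3. HAI1 rose 2.55-fold in PP2-A5oe (log2 1.35 ± 0.14, adjusted p = 2.48e-09), with a 1.76-fold rise in pp2-a5 (log2 0.81 ± 0.15, adjusted p = 8.75e-05). It was 1.45-fold higher in PP2-A5oe than in pp2-a5 (log2 0.53 ± 0.13, adjusted p = 0.00255). HAI1 has 2 annotated transcripts, so its level is less certain than those of the other 3.

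ABI1 (AT4G26080, chromosome 4 from 13219915 to 13222376, minus strand, 1 transcript), also a clade A phosphatase, moved by nearly the same amount in both lines. It stood at 47.9, 49.2 and 50.05 CPM in Col-0, at 72.9, 74.3 and 74.9 CPM in PP2-A5oe and at 70.9, 69.3 and 76.4 CPM in pp2-a5. Both lines lay above Col-0 in every library, and they overlapped each other. ABI1 rose 1.51-fold in PP2-A5oe (log2 0.59 ± 0.08, adjusted p = 3.82e-07), with a 1.47-fold rise in pp2-a5 (log2 0.56 ± 0.08, adjusted p = 1.55e-06). Between the lines the log2 difference was 0.04 ± 0.08, with a 95% interval of -0.12 to 0.19 (adjusted p = 0.860). ABI1 overlaps AT4G26070 on the opposite strand, and since no strand setting is given, reads of the overlap cannot be told apart.

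PP2CA (AT3G11410, chromosome 3 from 3583782 to 3585850, minus strand, 1 transcript), a phosphatase that acts in seeds and guard cells, had the highest level and the smallest difference. It stood at 80.5, 79.9 and 88.3 CPM in Col-0, at 94.0, 104.7 and 96.1 CPM in PP2-A5oe and at 96.5, 104.2 and 96.5 CPM in pp2-a5. No library of either line lay within the Col-0 range. PP2CA rose 1.19-fold in PP2-A5oe (log2 0.25 ± 0.08, adjusted p = 0.0134), with a 1.20-fold rise in pp2-a5 (log2 0.26 ± 0.07, adjusted p = 0.0112). Between the lines the log2 difference was -0.01 ± 0.07, with a 95% interval of -0.16 to 0.14 (adjusted p = 0.959). The PP2-A5oe call was lost without Col-0 replicate 1 (adjusted p = 0.0678), Col-0 replicate 2 (0.0526) or PP2-A5oe replicate 2 (0.101). The pp2-a5 call was lost without Col-0 replicate 1 (0.0622) or pp2-a5 replicate 2 (0.0795).

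**Figure D2:**
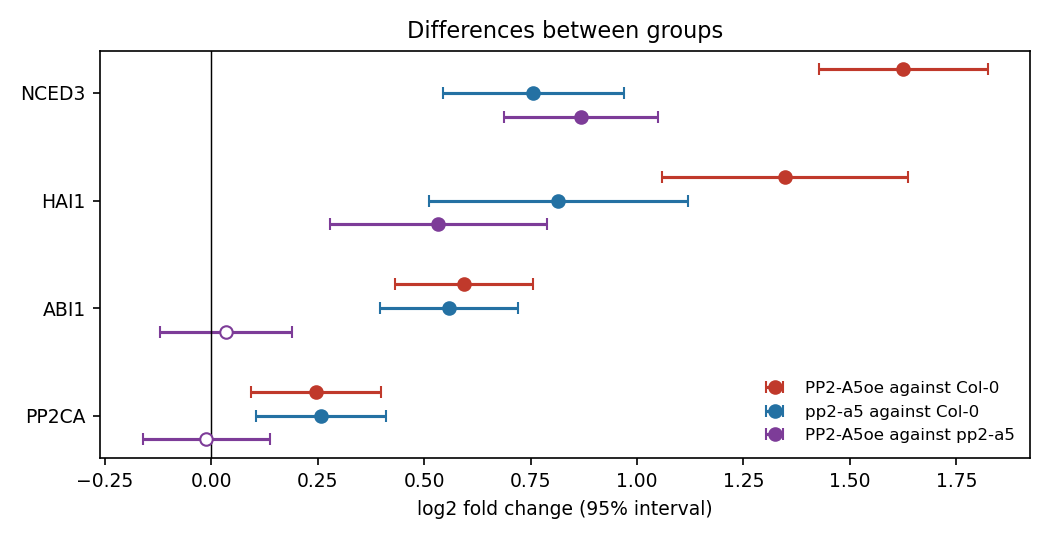
Log2 fold change of each tested gene in the 3 comparisons, with 95% intervals from the edgeR fit. Filled points were called and open points were not. The open points are ABI1 and PP2CA between the lines, at 0.04 and -0.01.

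Levels were also compared per kilobase of annotated exon, which allows genes of different length to be set side by side. In Col-0 the order was PP2CA (46.0 ± 2.63 CPM per kilobase), ABI1 (22.6 ± 0.50), NCED3 (7.81 ± 0.13) and HAI1 (4.83 ± 0.64), with no overlap between neighbours. In PP2-A5oe the order was the same, at 54.6 ± 3.16, 34.1 ± 0.46, 24.1 ± 0.87 and 12.3 ± 1.47 CPM per kilobase. In pp2-a5 it was again the same, at 55.0 ± 2.46, 33.3 ± 1.73, 13.2 ± 1.73 and 8.49 ± 1.23 CPM per kilobase.

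Of the 4 other clade A phosphatases, 3 were in the table and 2, HAI2 and HAB2, were tested. HAI2, a close relative of HAI1, was at 6.14 ± 0.80, 10.5 ± 1.65 and 8.39 ± 0.64 CPM in Col-0, PP2-A5oe and pp2-a5. It rose in PP2-A5oe (log2 0.78 ± 0.18, adjusted p = 0.00119). In pp2-a5 its log2 value was 0.46 ± 0.19 (adjusted p = 0.0843), and the difference between the lines was 0.33 ± 0.17 (adjusted p = 0.243). HAB2, the relative of HAB1, was at 0.09 ± 0.12 and 0.05 ± 0.12 (adjusted p = 0.628 and 0.832).

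Receptor genes were mostly not called, as were most tested loci. The shares called over all loci were 25.0% in PP2-A5oe, 20.8% in pp2-a5 and 12.7% between the lines. Of 14 PYR/PYL genes, 12 were in the table and 8 were tested, with a median log2 fold change of -0.01 in PP2-A5oe and 0.06 in pp2-a5. PYL4 was the most abundant, at 300 ± 12.9 CPM in Col-0, and PYR1 followed, with log2 fold changes of -0.05 ± 0.06 and -0.01 ± 0.08 in PP2-A5oe (adjusted p = 0.595 and 0.933). PYL2 was called higher in PP2-A5oe (log2 0.49 ± 0.16, adjusted p = 0.0176) and PYL6 in pp2-a5 (log2 0.60 ± 0.22, adjusted p = 0.0448). In the other line, PYL2 was at 0.30 ± 0.16 (pp2-a5, adjusted p = 0.190) and PYL6 at 0.54 ± 0.22 (PP2-A5oe, adjusted p = 0.0699). The PYL2 call was lost in 5 alternatives and the PYL6 call in 9, DESeq2 among them in both cases. PYL2 was lost without Col-0 replicate 2, PP2-A5oe replicate 1 or PP2-A5oe replicate 2 (adjusted p from 0.0533 to 0.113). PYL6 was lost without Col-0 replicate 1 or 3 or any single pp2-a5 replicate (adjusted p from 0.0623 to 0.161). Between the lines no receptor was called, and none had an unadjusted p under 0.05 or was called by DESeq2 or limma-voom.

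Of the 5 SnRK2 kinases, all were in the table and 3 were tested, and none was called in any comparison with the settings used throughout. Since only 25.0%, 20.8% and 12.7% of all loci were called in PP2-A5oe, in pp2-a5 and between the lines, these 3 are not read as unchanged. SNRK2.6 (OST1), the kinase of guard cell closure, was at a log2 fold change of 0.32 ± 0.15 in PP2-A5oe (adjusted p = 0.128), against 0.22 ± 0.15 in the pp2-a5 mutant (adjusted p = 0.338). SNRK2.3, which overlaps other annotated genes, was at -0.33 ± 0.12 (adjusted p = 0.0533) and -0.01 ± 0.12 (adjusted p = 0.963). In PP2-A5oe, SNRK2.3 passed the threshold with upper-quartile scaling (log2 -0.37, adjusted p = 0.0236) and with the stricter filter (log2 -0.32, adjusted p = 0.0413). At an unadjusted p under 0.05 there were 2 in PP2-A5oe, none in pp2-a5 and 1 between the lines, and DESeq2 and limma-voom called none.

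**Figure D3:**
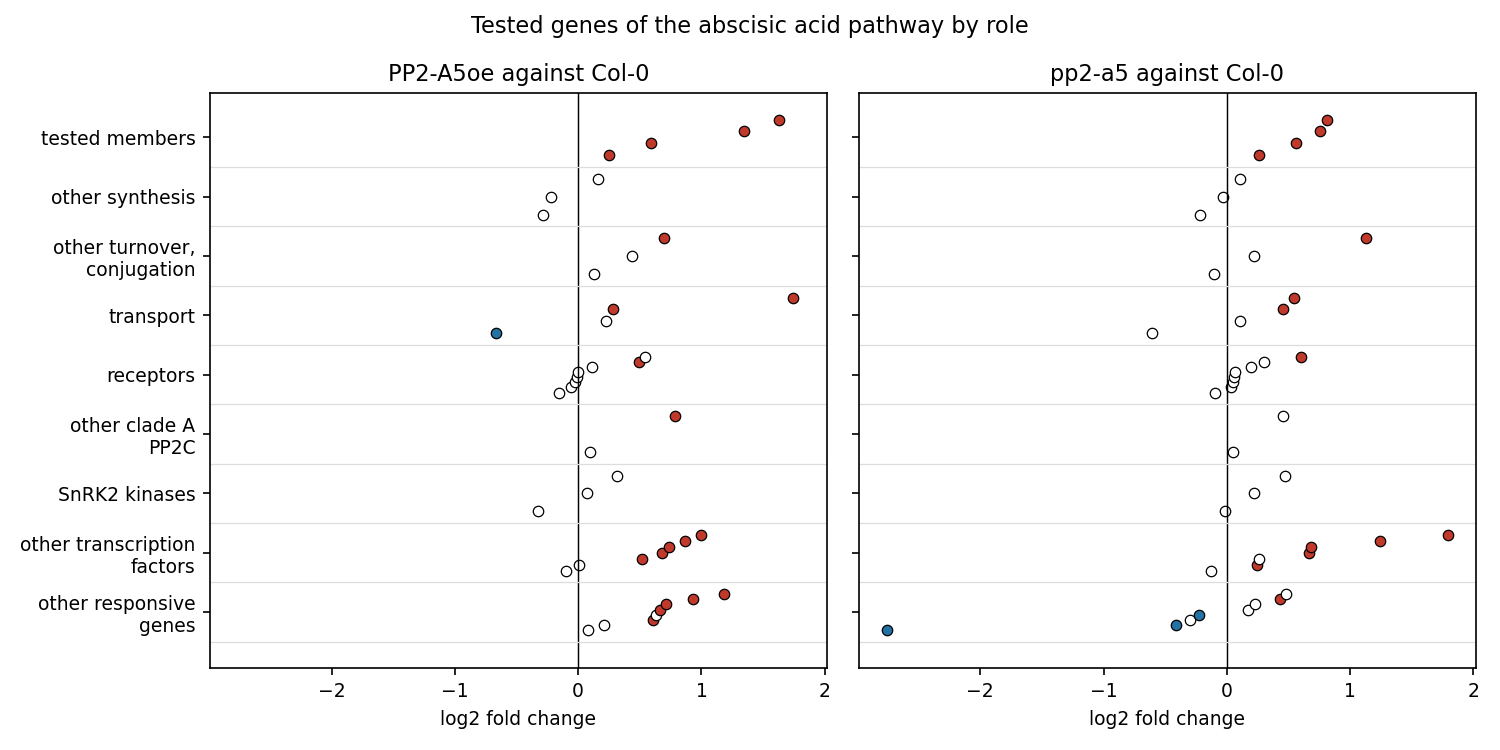
Log2 fold change of every tested gene of the pathway by role, with PP2-A5oe against Col-0 on the left and pp2-a5 against Col-0 on the right. Red points were called higher, blue points were called lower and open points were not called. The rows of other synthesis genes, which leave out NCED3, and of SnRK2 kinases hold open points only in both panels. The row of other transcription factors holds 5 red points in each. Of all tested loci, 25.0% were called on the left (14.5% higher) and 20.8% on the right (12.3% higher). The blue point of KIN1 on the right rests on 5 counts in pp2-a5.

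Genes of ABA transporters did not move together. All 4 on the list were tested. DTX50, a MATE-type ABA exporter, stood at 4.998, 4.19 and 4.30 CPM in Col-0, at 15.6, 14.8 and 15.04 CPM in PP2-A5oe and at 4.22, 1.82 and 2.81 CPM in pp2-a5. It was thus high in all PP2-A5oe libraries, while Col-0 and pp2-a5 overlapped. DTX50 rose in PP2-A5oe (log2 1.74 ± 0.19, adjusted p = 4.63e-09) and was higher there than in pp2-a5 (log2 2.35 ± 0.20, adjusted p = 4.71e-11), while pp2-a5 against Col-0 was at -0.61 ± 0.26 (adjusted p = 0.101).

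ABCG40, an ABA importer of the plasma membrane, had the opposite order, with 15.8 ± 2.68, 9.89 ± 1.06 and 23.0 ± 2.32 CPM in Col-0, PP2-A5oe and pp2-a5. ABCG40 fell in PP2-A5oe (log2 -0.67 ± 0.15, adjusted p = 0.00114) and rose in pp2-a5 (log2 0.54 ± 0.13, adjusted p = 0.00201). The difference between the lines was -1.21 ± 0.14 (adjusted p = 5.09e-08), and the gene has 2 annotated transcripts. NPF4.6, a transporter that takes up ABA, rose in pp2-a5 (log2 0.46 ± 0.08, adjusted p = 8.33e-05) and was at 0.22 ± 0.09 in PP2-A5oe (adjusted p = 0.0534). ABCG25, an exporter, was called higher in PP2-A5oe (log2 0.28 ± 0.10, adjusted p = 0.0280). The ABCG25 call was lost in 6 alternatives, upper-quartile scaling and DESeq2 among them, with an adjusted p of 0.215 without Col-0 replicate 3, 0.0824 without PP2-A5oe replicate 1 and 0.0888 without PP2-A5oe replicate 3.

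Most tested transcription factors and their partners rose in each line. Of 16 on the list, 11 were in the table and 7 were tested, of which 5 rose and none fell in each line. The median log2 fold change was 0.68 in PP2-A5oe and 0.66 in pp2-a5, beside -0.02 and -0.01 over all loci. HB-12, a homeodomain factor induced by ABA, rose by the same log2 0.68 ± 0.07 with an adjusted p of 2.85e-09 in PP2-A5oe and 4.42e-09 in pp2-a5. AFP4, of the family that binds ABI5, rose in PP2-A5oe (log2 0.87 ± 0.10, adjusted p = 1.88e-08), as it also did in pp2-a5 (log2 0.66 ± 0.10, adjusted p = 5.03e-06).

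AFP1, RD26 and NAC019 also differed between the lines. AFP1, a negative regulator of ABA response that overlaps another annotated gene, was at 66.3 ± 1.36, 132.6 ± 9.96 and 78.6 ± 7.78 CPM in Col-0, PP2-A5oe and pp2-a5. AFP1 rose in PP2-A5oe (log2 1.00 ± 0.08, adjusted p = 3.42e-12), rose less in pp2-a5 (log2 0.24 ± 0.08, adjusted p = 0.0297) and differed between the lines (log2 0.76 ± 0.08, adjusted p = 3.11e-09). RD26 and NAC019, NAC factors of drought and jasmonate responses, were highest in pp2-a5. RD26, with 3 annotated transcripts, was at 5.33 ± 1.13, 8.89 ± 1.83 and 18.6 ± 0.72 CPM in Col-0, PP2-A5oe and pp2-a5, with a log2 fold change of 0.73 ± 0.20 in PP2-A5oe (adjusted p = 0.00525), against 1.79 ± 0.17 in the pp2-a5 mutant (adjusted p = 3.93e-10). NAC019 was at 5.399 ± 0.86, 4.997 ± 1.27 and 12.7 ± 0.29 CPM, with -0.10 ± 0.22 in PP2-A5oe (adjusted p = 0.802), against 1.24 ± 0.18 in the pp2-a5 mutant (adjusted p = 2.38e-06). Between the lines, PP2-A5oe was lower for RD26 (log2 -1.06 ± 0.15, adjusted p = 2.64e-06) and for NAC019 (log2 -1.34 ± 0.18, adjusted p = 1.04e-06).

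**Figure D4:**
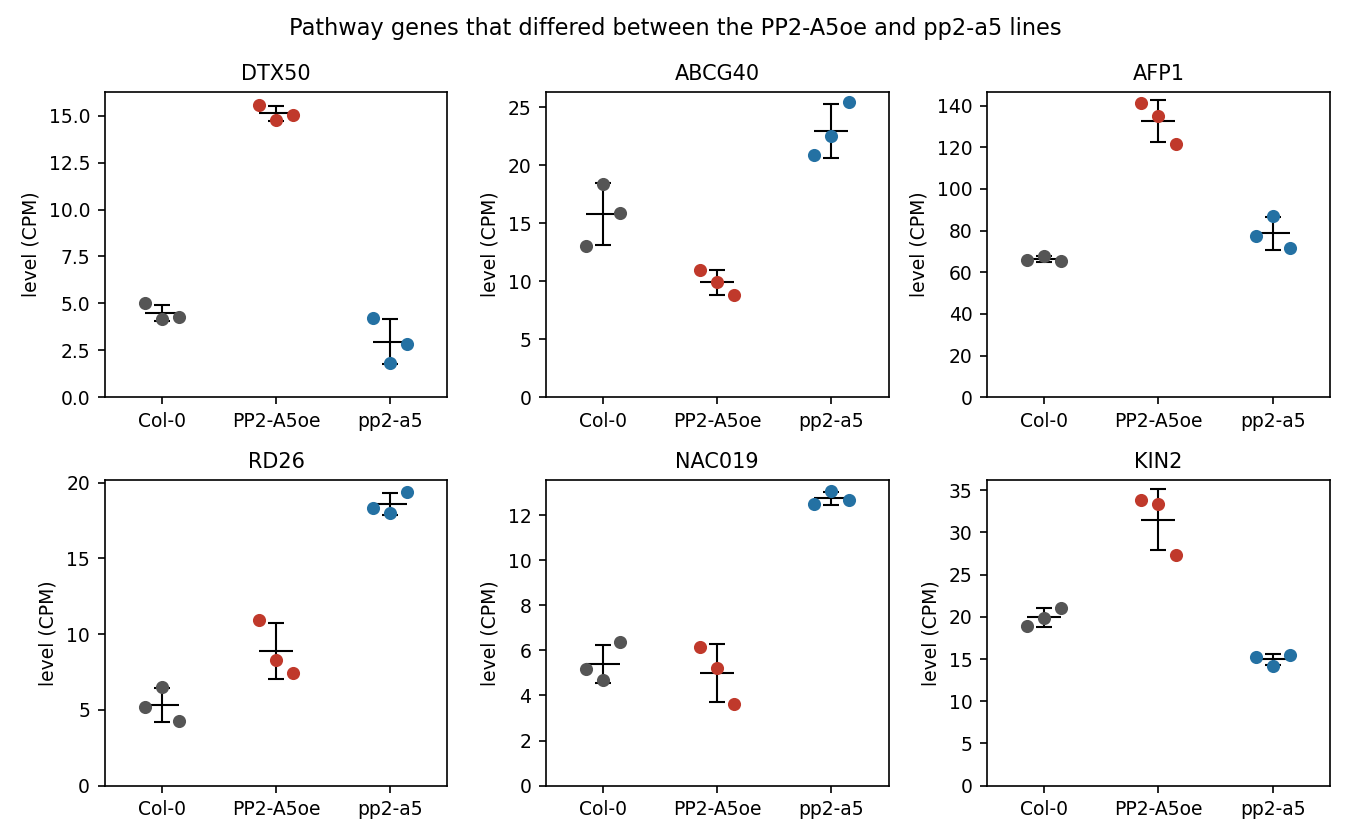
CPM of DTX50, ABCG40, AFP1, RD26, NAC019 and KIN2 in each library by group, with points for libraries and lines for mean and SD (n = 3). DTX50, AFP1 and KIN2 are highest in PP2-A5oe, while ABCG40, RD26 and NAC019 are highest in pp2-a5.

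Most tested genes that respond to ABA, drought or cold were higher in PP2-A5oe than in pp2-a5. Of 17 on the list, 13 were in the table and 8 were tested. PP2-A5oe had 5 higher and none lower (median log2 0.65), pp2-a5 had 1 higher and 3 lower (median log2 -0.03), and between the lines 7 were higher in PP2-A5oe and none lower (median log2 0.52). Over all loci the shares called higher and lower were 14.5% and 10.5%, 12.3% and 8.47%, and 7.21% and 5.45% in these comparisons. Both the 7 and the 3 lower include KIN1, which had 5 counts in pp2-a5 and passed the filter only through Col-0 and PP2-A5oe. Both also include KIN2, whose reads could be split with KIN1. GOLS2, a galactinol synthase, rose in PP2-A5oe (log2 0.93 ± 0.09, adjusted p = 4.36e-10), as it also did in pp2-a5 (log2 0.43 ± 0.09, adjusted p = 0.000622). COR47, a dehydrin, rose in PP2-A5oe (log2 0.71 ± 0.08, adjusted p = 1.14e-08) and was at 0.17 ± 0.08 in pp2-a5 (adjusted p = 0.139).

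KIN2 rose in PP2-A5oe (log2 0.66 ± 0.11, adjusted p = 2.06e-05) and fell in pp2-a5 (log2 -0.41 ± 0.13, adjusted p = 0.0170), with a difference between the lines of 1.07 ± 0.12 (adjusted p = 9.77e-09). KIN1, its near-identical neighbour, had 34, 39 and 5 counts in Col-0, PP2-A5oe and pp2-a5. KIN1 passed the filter only through Col-0 and PP2-A5oe, so its difference is given as counts with no test. The pp2-a5 libraries gave 1, 1 and 3 counts. Reads of KIN1 and KIN2 could be split between them, so both values are uncertain. RD22, a gene used as a marker of ABA response, fell in pp2-a5 (log2 -0.23 ± 0.06, adjusted p = 0.00803) and was at 0.08 ± 0.06 in PP2-A5oe (adjusted p = 0.370).

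Taking all 75 genes of the wider lists, 61 were in the table and 38 were tested. Of these, 15 were higher and 1 lower in PP2-A5oe, and 10 were higher and 3 lower in pp2-a5. Between the lines 9 were higher and 3 lower in PP2-A5oe. The median log2 fold changes were 0.25, 0.18 and 0.09, beside -0.02, -0.01 and -0.00 over all loci. For comparison, 14.5% of all tested loci were called higher and 10.5% lower when the overexpressing line was set against Col-0. The mutant against Col-0 had 12.3% higher and 8.47% lower. Between the lines the shares were 7.21% and 5.45%. The lists were chosen with earlier results of these data known, so these counts are a description. KIN1, which passed the filter only through Col-0 and PP2-A5oe, is among the 3 lower in pp2-a5 and the 9 higher between the lines.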

How the data were processed

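Raw counts, not normalized by the authors, were deposited as 22449 rows naming 22155 loci, and rows of a locus were summed. The genome was TAIR10, per the submitters' processing notes. The sources used here do not give the aligner, counter, gene models or strand setting. Names, positions and promoters came from TAIR10.1 (21952 loci matched, 203 not). edgeR 4.0.16 (R 4.3.3) fitted all 9 libraries with a mean per group: filterByExpr (minimum count 10, total 15) kept 13975 loci with 99.8% of counts, scaled by TMM, with robust quasi-likelihood dispersions (biological coefficient of variation 6.89%, residual degrees of freedom 6). P-values were Benjamini-Hochberg adjusted over all loci of a comparison. All 10 members are named, and from each other list and comparison up to 3 called genes with the smallest adjusted p, or, with no call, the 2 most abundant tested genes at most. The members and lists were chosen with earlier results of these data known. Alternatives were DESeq2 1.42.0, scaling by RLE or upper quartile, limma-voom (limma 3.58.1), no filter, a stricter filter (10 CPM in 3 libraries), only the groups compared, a replicate block, unsummed rows and leaving out each library. Chosen after seeing the data were loci with 1 annotated transcript and leaving out the 2 libraries of highest mitochondrial share.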

Additional observations from a re-analysis of the deposited data

How the results depend on the processing

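NCED3, ABI1 and HAI1 kept their direction and their calls against Col-0 in every alternative in which they were fitted. Log2 fold changes ranged from 1.58 to 1.65 (NCED3), 1.247 to 1.45 (HAI1) and 0.55 to 0.61 (ABI1) in PP2-A5oe, and from 0.68 to 0.86, 0.69 to 0.92 and 0.51 to 0.59 in pp2-a5. PP2CA ranged from 0.20 to 0.28 and from 0.22 to 0.30. Leaving out each library gave 3 to 4 of the 4 genes called in each line against Col-0 and 2 between the lines. With loci of 1 annotated transcript, 1 was called between the lines, because HAI1 was not in that set. Over all loci, leaving out each library gave 2818 to 3675, 2255 to 3145 and 1342 to 2161 calls in PP2-A5oe, in pp2-a5 and between the lines. Same-numbered replicates showed no shared deviation (correlations -0.18 to 0.062, beside -0.089 to 0.14 for different numbers). These values cannot settle whether same-numbered samples were grown or handled together, which the labels do not give. With the replicate number as a block, 4, 4 and 2 of the 4 genes and 3185, 2575 and 1571 loci were called. Some log2 values of genes that were not called changed sign when libraries were left out, and the cause was not tested. In pp2-a5 against Col-0, leaving out each library gave -0.078 to 0.037 for ABA4, -0.060 to 0.15 for HAB2 and -0.041 to 0.035 for SNRK2.3, and without the 2 libraries of highest mitochondrial share ABA4 was 0.037 and HAB2 -0.060. Between the lines, leaving out each library gave -0.058 to 0.026 for PP2CA, -0.16 to 0.038 for PYR1, -0.0084 to 0.076 for PYL4 and -0.091 to 0.15 for HAB2. Genes without about 10 counts in at least 3 libraries were not tested.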
